A study of Mus musculus with 3 samples.

Results

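The genes of the T cell receptor were examined in RNA from mouse cells labelled as T-helper 1, the subset of CD4 T cells that makes interferon gamma. The members were all genes whose symbol is that of a V or J segment of the alpha, beta, gamma or delta locus, or of a constant gene of these loci. There were 264 of them among 50600 genes, and 44 were annotated as pseudogenes. The primary cells, of mouse strain C57BL/6NJ, form 1 group of 3 biological replicates. Each replicate has its own biosample record, and all share 1 donor record. No genotype change and no agent is given in the labels, age and developmental stage are recorded as unknown, and the labels link a protocol for differentiation of CD4 T cells. The count headers carry the tag 16hr, whose meaning the labels do not give. With no second condition, segments were compared within a library, and the 3 libraries gave the spread. Nothing says whether the replicates came from separate animals.

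A T cell receptor chain is built by joining gene segments in the thymus. The alpha chain joins a V to a J segment, the beta chain joins V, D and J, and splicing then links the joined exon to a constant (C) exon. The V segment carries the first contact loops, the V-J junction forms the most variable loop, and the constant gene encodes the part anchored in the membrane. CD4 T cells carry the alpha-beta receptor, while a separate lineage carries a receptor made of gamma and delta chains. A polyclonal population holds many V and J choices at once, so the counts over segments are a coarse picture of the receptors present.

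Replicate 1 held 4764598 deposited gene counts, replicate 2 held 2568928 and replicate 3 held 2815439, all made with strand setting 1. A count of 0 is read as allowing up to 3 counts, which is 0.630, 1.17 and 1.07 CPM (counts per 1000000 library counts) in replicates 1, 2 and 3; such floors and the exact binomial (Clopper-Pearson) intervals below cover counting error only. Replicate 2 stood apart at low counts. Among genes other than the members with 3 to 10 counts over all libraries, 80.8% were at 0 in replicate 2, against 10.8% in replicate 1 and 20.4% in replicate 3, and among the members in the same range the shares were 83.9%, 1.79% and 19.6%. Several results that rest on low counts are therefore given with and without replicate 2. Per kilobase, counts of mt-Nd6 exceeded those of mt-Co1, a mitochondrial gene of the other strand, 6.40-fold in replicate 1, 10.3-fold in replicate 2 and 24.5-fold in replicate 3. The sources used here do not give the kit, so whether the strand setting matches it could not be settled. If it does not, the counts printed below would be of reads from the strand opposite to the one intended.

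Markers of CD4 T cells in general were present, and those of the T-helper 1 subset were at or near 0. Tbx21, the regulator that defines the subset, had 2, 10 and 2 counts in replicates 1, 2 and 3, and Ifng, its main cytokine, had 1, 0 and 0. These counts do not bear out the subset named in the label, and the part of the strand setting in them was not tested. All 4 genes of the CD3 signalling complex, which carries the receptor to the surface, had counts in every library, with summed counts of 3547, 1949 and 1943. Of all genes 23.7% had a count in every library. Cd4, which marks helper cells, had 2208, 984 and 787 counts, while Cd8a, which is needed for the CD8 co-receptor, had 0 in every library and its partner Cd8b1 had 97, 15 and 36. Of 4 genes of receptor rearrangement and the thymic pre-receptor, Rag1, Rag2 and Ptcra were at 0 and Dntt had 4 counts, all in replicate 1. Over all genes 32372 of 50600 were at 0 in every library, so these zeros alone do not set the list apart.

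Receptor counts came almost wholly from the alpha and beta loci. The members together held 2769, 1238 and 904 counts in replicates 1, 2 and 3, which is 581, 482 and 321 CPM and a mean of 461 ± 131 (SD, n = 3). The alpha locus held 1230, 556 and 442 counts over 189 segments, and the beta locus held 1532, 677 and 458 counts over 51 segments. Alpha counts were 44.5%, 45.1% and 49.1% of the alpha and beta counts, a mean of 46.2% ± 2.50 (SD, n = 3). In bulk RNA, fewer receptor-bearing cells and less receptor RNA per cell cannot be told apart. The total in CPM varied 1.81-fold between the highest and lowest library, and the alpha share varied by 4.58 percentage points.

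The gamma and delta loci were at or near 0. None of the 15 gamma segments, the 4 constant genes included (Tcrg-C1 to Tcrg-C4), had a count in any library. The 9 delta segments held 7, 5 and 4 counts, and with the gamma locus they made up 0.253%, 0.404% and 0.442% of receptor counts (exact 95% intervals 0.102 to 0.520%, 0.131 to 0.940% and 0.121 to 1.13%). Trdc, the delta constant gene, had 7, 0 and 2 counts, and Trdv1 had 0, 5 and 1. The remaining delta count was in replicate 3 on Trdv5, the delta V segment that lies on the opposite strand to the rest of its locus. Trdc shares 303 of its 3865 exon bases with genes of the other strand, among them Gm43434, which had 20, 22 and 15 counts. Of the 9 genes on the gamma-delta T cell list, 7 were at 0 in every library, as were 32372 of all 50600 genes. Those with a count were Trdc and Sox13, a transcription factor of that lineage, which had 1, 0 and 2 counts. The list includes Tcrg-C1, Tcrg-C2, Tcrg-C4 and Trdc, which are members already counted above, so their values are not separate evidence.

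**Figure D1:**
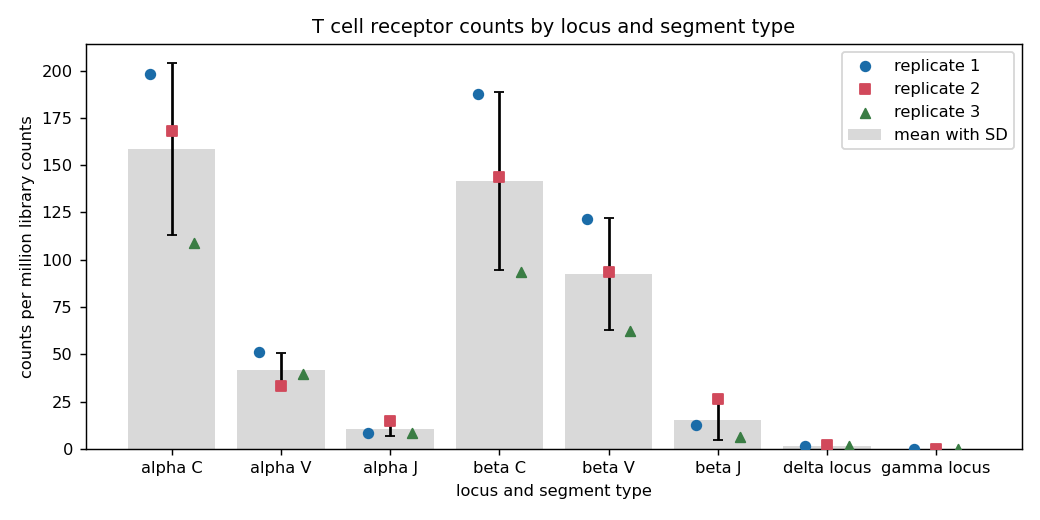
CPM (counts per 1000000 library counts, y axis) for constant (C), V and J segments of the alpha and beta loci and for all delta and gamma segments (x axis); bars are means of the 3 libraries, whiskers the SD, and points the single libraries. Constant genes stand highest in both loci, beta V counts are above alpha V counts in every library, and the gamma locus is at 0.

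Constant genes held most of the receptor counts. Their share was 66.7%, 64.7% and 63.4% in replicates 1, 2 and 3, a mean of 64.9% ± 1.65 (SD, n = 3), while V segments held 29.5% ± 2.68 and J segments 5.57% ± 2.63. The J share was 3.61%, 8.56% and 4.54% in replicates 1, 2 and 3, highest in replicate 2. Counts of a gene scale with its length, and per kilobase the constant share was 31.3% ± 5.42. J segments are very short and a read pair can count toward a segment that it overlaps in part, so the share per kilobase depends on how such pairs were counted.

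Trac, the only alpha constant gene (mm10 chr14:54220521-54224206, + strand), had 945, 432 and 307 counts, or 1011, 462 and 328 counts per kilobase. The beta locus has a pair of constant genes, each downstream of its own D and J cluster, whose proteins work alike. Trbc1 (chr6:41538218-41539881, + strand) had 355, 148 and 113 counts. Trbc2 (chr6:41546730-41548352, + strand) had 539, 221 and 151 counts, 59.1% ± 1.68 of the counts of the pair. Trbc2 was above Trbc1 per kilobase in 3 of 3 libraries, by 0.72, 0.69 and 0.53 on the log2 scale. Their transcripts were 84.2% identical over 692 bases, and counts of the stretches they share could be split or left out. Trac was below the sum of Trbc1 and Trbc2 per kilobase in 3 of 3 libraries, with log2 ratios of -0.31, -0.16 and -0.17 and a mean of -0.21 ± 0.08 (SD, n = 3). The exact two-sided sign-flip permutation test gave p = 0.25, the smallest that 3 libraries allow. It takes this value whenever all 3 ratios have the same sign, whatever their spread. The sign of that ratio depended on the unit, since in plain counts the mean log2 ratio was 0.18 ± 0.08.

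Trac was above each of the 4 CD3 genes per kilobase in 3 of 3 libraries. The mean log2 ratio was 0.89 ± 0.55 to Cd247 (the zeta chain), 1.88 ± 0.30 to Cd3d, 2.45 ± 0.14 to Cd3g and 3.26 ± 0.15 to Cd3e (SD, n = 3). The order against Cd247 depended on the unit. In plain counts Cd247 was above Trac in 3 of 3 libraries, with 2029, 1270 and 1416 counts against 945, 432 and 307. Cd3d, Cd3g and Cd3e were below Trac in plain counts too.

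Of the 264 members 140 had a count in any library (53.0%), where 36% of all genes did, and 33 had a count in every library (12.5%), where 23.7% of all genes did. Among V segments 90 of 176 had a count in any library and 24 in every library. Replicates 1 and 3 alone both had counts for 66 V segments. Of these, 42 were at 0 in replicate 2, and no V segment was seen in replicate 2 alone.

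The number of V segments seen did not follow the number of V counts. Replicate 1 had 823 V counts on 81 segments, replicate 2 had 331 on 28 and replicate 3 had 290 on 75. Drawn down to 290 counts, replicate 1 would show 59.0 segments and replicate 2 would show 27.7, against the 75 seen in replicate 3. Single counts, the usual sign of rarely sampled segments, made up 26.1%, 5.13% and 47.1% of the members seen in replicates 1, 2 and 3, and 11.3%, 3.43% and 11.6% of other genes. Why replicate 2 held few segments with few counts, across the members and other genes alike, was not tested.

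**Figure D2:**
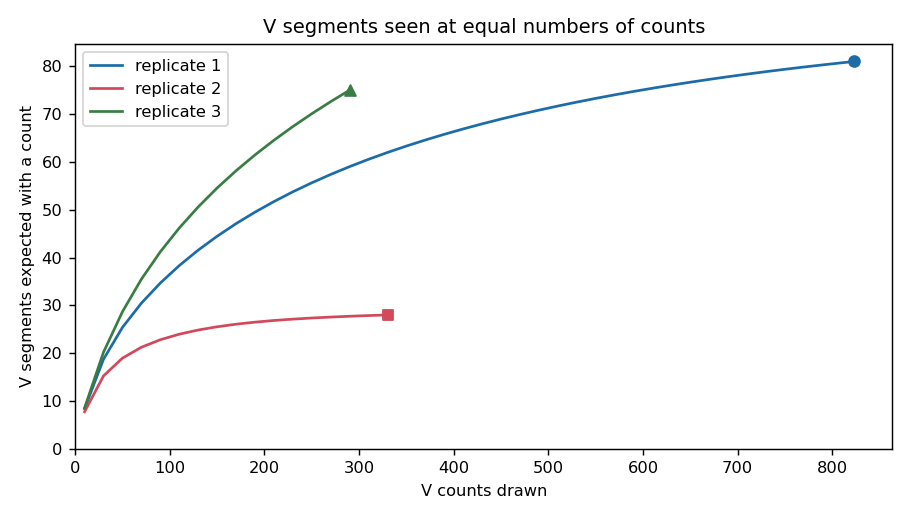
Number of V segments expected with at least 1 count (y axis) when a given number of V counts is drawn without replacement (x axis); each line is 1 library and ends in its observed value. The line of replicate 2 flattens near 28 segments, below both other libraries at every number of counts above the first steps.

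Beta V counts were spread over many segments, and Trbv13-2, Trbv13-1 and Trbv2 were among the highest in every library. Of 22 beta V segments annotated as genes 21 had a count in some library and 14 in every library, while 2 of 13 pseudogenes had any, Trbv24 with 4 counts and Trbv9 with 1. The exception among the 22 was Trbv21, at 0 throughout. Over all genes of the libraries 36% had a count in any library and 23.7% in every library. The effective number of beta V segments (the number of equally used segments that would give the same Shannon entropy) was 14.5, 11.1 and 13.9, a mean of 13.1 ± 1.83 (SD, n = 3) and 14.2 ± 0.461 over replicates 1 and 3. The 8 segments of highest summed count held 72.7%, 75.0% and 67.0% of beta V counts, and the order among them differed between libraries.

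The V segment carries, near its end, the conserved cysteine at the start of the third loop. The ends of 6 of the 8 highest segments are shown so that the letters next to the junction can be compared. Each line gives the gene's place in mm10 and the last 45 bases of its GRCm38 transcript from GENCODE, 5′ to 3′, with the cysteine codon in capitals.
Trbv13-2 (chr6:41121396-41121832, + strand): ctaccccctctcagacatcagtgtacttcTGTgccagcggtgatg
Trbv13-1 (chr6:41116007-41116468, + strand): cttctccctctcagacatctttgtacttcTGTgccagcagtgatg
Trbv2 (chr6:41047340-41047995, + strand): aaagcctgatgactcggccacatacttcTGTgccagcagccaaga
Trbv31 (chr6:41557691-41558452, - strand): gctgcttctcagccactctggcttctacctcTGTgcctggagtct
Trbv19 (chr6:41178375-41179048, + strand): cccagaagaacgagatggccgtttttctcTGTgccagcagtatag
Trbv15 (chr6:41141188-41141658, + strand): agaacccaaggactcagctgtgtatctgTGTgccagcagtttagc

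Trbv13-2, a segment of the Vbeta8 family, was the highest V segment of the receptor, with 72, 42 and 36 counts. It held 12.5%, 17.5% and 20.5% of beta V counts (exact 95% intervals 9.88 to 15.4%, 12.9 to 22.9% and 14.8 to 27.2%), and all 3 intervals overlapped. Its neighbour Trbv13-1 had 60, 33 and 27 counts and Trbv13-3 had 43, 18 and 5. The 3 members of this family held 30.3%, 38.8% and 38.6% of beta V counts. Their transcripts were 85.3% to 90.6% identical, so reads of the stretches they share could have been left out.

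Trbv2 had 63, 26 and 19 counts, and its share of beta V counts was 10.9%, 10.8% and 10.8%, the smallest SD (0.0527) among the 8 highest segments. Trbv1, the first segment of the locus, had 36, 19 and 10 counts, a share of 6.61% ± 1.17 (SD, n = 3). Trbv31, the last, lies downstream of Trbc2 on the opposite strand and joins by inversion. It had 36, 31 and 5 counts, 6.23%, 12.9% and 2.84% of beta V counts, with exact intervals of 8.95 to 17.8% in replicate 2 and 0.929 to 6.50% in replicate 3.

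Per kilobase over the 3 libraries together, the order of the highest beta V segments was Trbv13-2 at 441 counts, Trbv13-1 at 328, Trbv13-3 at 194, Trbv2 at 193, Trbv15 at 178, Trbv31 at 172, Trbv1 at 156, Trbv3 at 141 and Trbv19 at 125. The order from Trbv13-3 to Trbv19 rests on values that differed between libraries by more than these gaps. Of the lower genes, Trbv3 had 40, 9 and 15 counts, Trbv16 had 27, 3 and 9, Trbv29 had 13, 12 and 4, and Trbv23 had 5, 12 and 1. Trbv4, Trbv20, Trbv17, Trbv12-1, Trbv14, Trbv30 and Trbv5 had 1 to 14 counts in all.

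The beta V segments of largest spread between libraries were Trbv26, Trbv31, Trbv12-2 and Trbv19. They were chosen for that spread, so their values are a description, and the intervals beside them cover counting error only. Trbv19 had 57, 5 and 9 counts, a share of 9.86% in replicate 1 (interval 7.55 to 12.6%), against 2.08% in replicate 2 (0.680 to 4.79%). Trbv15 had 53, 6 and 7 counts and was likewise highest in replicate 1. Trbv26 had 28, 0 and 8 counts, a share of 4.84% in replicate 1 (3.24 to 6.93%), while its 0 of 240 counts in replicate 2 allowed up to 1.25% by the floor of 3 counts and 1.53% by the exact interval. Trbv12-2 moved the other way, with 7, 20 and 3 counts and a share of 8.33% in replicate 2 (5.16 to 12.6%), against 1.21% in replicate 1 (0.488 to 2.48%). Of the 14 V segments with at least 30 counts, Trav7-4, Trbv26, Trbv31, Trbv12-2 and Trbv19 had the largest SD of log2 CPM. The libraries are 1 group and were not tested against each other.

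**Figure D3:**
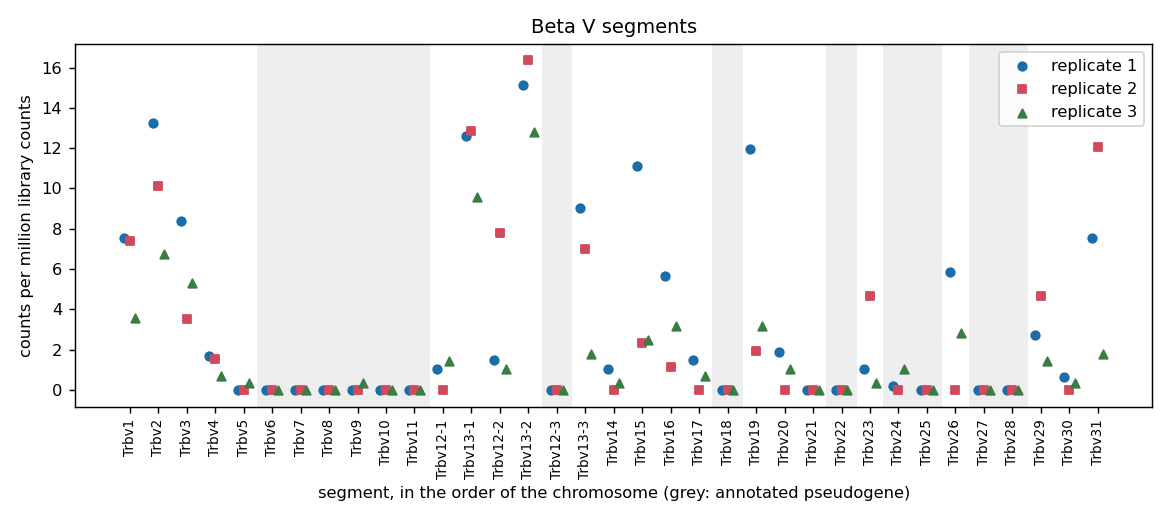
CPM (y axis) of the 35 beta V segments in their order on the chromosome (x axis), with 1 point for each library; grey marks annotated pseudogenes. Trbv13-2, Trbv13-1 and Trbv2 are high in all 3 libraries, Trbv15 and Trbv19 are high in replicate 1, Trbv12-2 and Trbv31 are highest in replicate 2, and the grey columns lie at or near 0.

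Alpha V segments held fewer counts than beta V segments in every library. The 128 alpha V segments held 245, 86 and 112 counts, and V segments made up 20.2% ± 4.94 of alpha counts, against 37.2% ± 1.56 of beta counts (SD, n = 3 each), lower in 3 of 3 libraries. Among alpha V segments 42 had an identical copy and 41 of these were at 0. Beta V segments were at most 90.6% identical to each other. The part of such copies in the alpha V counts, shares and effective numbers was not tested, so these are not read as a difference in V use. In all 65 alpha V segments had a count in any library and 10 in every library. That was 50.8% and 7.81% of them, where the shares over all genes were 36% and 23.7%. The effective number was 38.8, 9.08 and 36.3, a mean of 28.1 ± 16.5 and of 37.6 ± 1.78 over replicates 1 and 3. It was above that of beta V segments in replicates 1 and 3 and below it in replicate 2, where 24.4% of alpha V counts lay on 1 segment. Summed by family number it was 9.84 on average over the 3 libraries. Beta V segments were not summed by family, so this value is not comparable with their 13.1. The number expected at 86 counts was 39.4 in replicate 1, 13 in replicate 2 and 43.1 in replicate 3. Of 20 alpha V pseudogenes 3 had a count, 9 counts in all, 6 of them on Trav13-3.

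Much of the alpha V region is copied in the C57BL/6 genome, and copies carry the letters d and n in their names. The 55 segments with neither letter held 277 of the 443 alpha V counts and 44 of them had a count. The 39 segments with a d held 69 counts, with 11 seen, and the 34 with an n held 97 counts, with 10 seen. There were 42 alpha V segments whose transcript was wholly contained, letter for letter, in another V transcript or held one, and 41 of these had 0 counts; Trav6-6, identical to Trav6d-6, had 1. Of 48 segments at 97 to under 100% identity 38 had a count, 321 in all. Of 25 segments at 90 to under 97% identity 20 had a count, and of 13 under 90% identity 6 had a count. Of the 86 segments without an identical copy 64 thus had a count. The counting command names no option to include pairs that map to several places, and its part in these zeros was not tested. A 0 on a segment with an identical copy is not read here as absence.

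**Figure D4:**
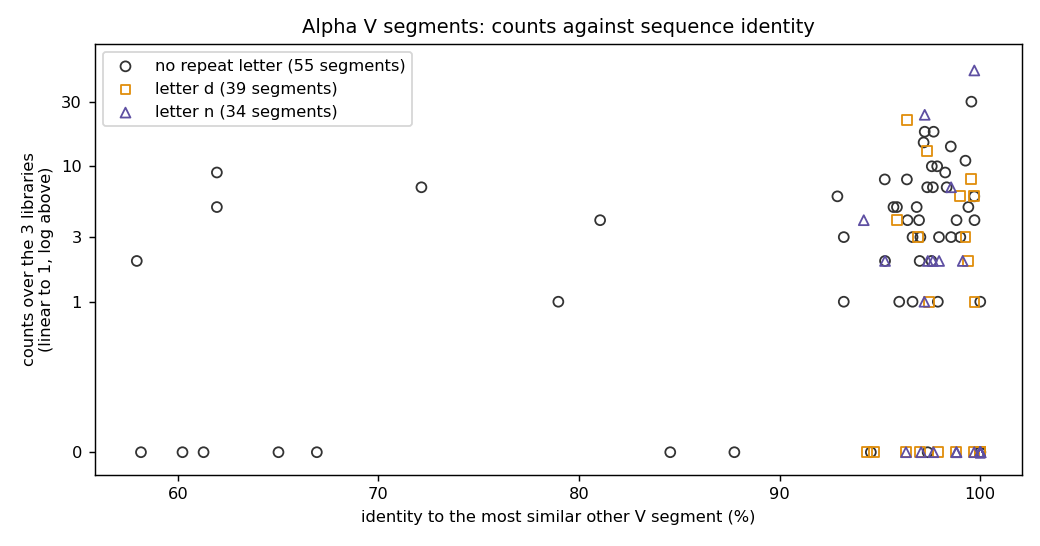
Counts over the 3 libraries (y axis, linear to 1 and logarithmic above) of the 128 alpha V segments against the identity of their transcript to the most similar other V transcript in percent (x axis); symbols mark the repeat letter in the name. Of the 42 segments at 100% identity 41 lie at 0, overlapping in the bottom right corner, while segments just below 100% reach 51 counts.

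Trav13n-3 was the highest alpha V segment, with 24, 15 and 12 counts or 5.04, 5.84 and 4.26 CPM. All of its 337 exon bases lie opposite exons of the antisense gene Gm43650, which had 19, 0 and 8 counts. Its copies Trav13d-3 and Trav13-3 had 2, 0 and 4 counts and 4, 0 and 2 counts. The transcript of Trav13n-3 differed from Trav13d-3 by 1 edit over 337 bases and from Trav13-3, an annotated pseudogene, by 2 over 336. A 45-base window is shown because the 3 copies can be told apart only at such letters; the base at which a copy differs from Trav13n-3 is in capitals, and the other two copies read alike here.
Trav13n-3 (mm10 chr14:53337122-53337639, + strand): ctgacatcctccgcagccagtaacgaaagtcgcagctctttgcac
Trav13d-3 (chr14:53032848-53033419, + strand): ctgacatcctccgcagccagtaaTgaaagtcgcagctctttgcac
Trav13-3 (chr14:53729558-53730074, + strand): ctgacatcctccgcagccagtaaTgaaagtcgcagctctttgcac

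The next alpha V segments varied more. Trav7-4 had 9, 21 and 0 counts, the largest spread of any V segment with at least 30 counts (SD of log2(CPM + 1) of 1.60), and its transcript differed from that of Trav7d-4 by 2 edits. Trav8d-1 had 8, 12 and 2 counts and Trav4-4-dv10, a segment named for use in alpha and delta chains, had 7, 6 and 2. Trav14n-3 had 21, 0 and 3 counts, Trav14-2 had 12, 0 and 6, and Trav14-3 had 17, 0 and 1. The 9 segments of the Trav14 family held 60, 0 and 11 counts. Trav9-2 had 5, 0 and 9 counts. Among the 8 highest alpha V segments 4 were thus at 0 in replicate 2, and the 8 held 42.0%, 62.8% and 31.3% of alpha V counts.

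In replicates 1 and 3 most alpha V counts lay on the segments nearest the J segments. The 44 alpha V segments of the proximal part of the locus held 143, 36 and 63 counts, with 35 seen, against 62, 15 and 31 counts on the 42 of the middle part and 40, 35 and 18 on the 42 of the distal part. The distal and middle parts hold all 73 segments with a d or an n, so position and identical copies cannot be told apart in this count.

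J segments carry the codons of a phenylalanine-glycine-X-glycine motif that lies in the framework of the V domain. The highest beta and alpha J segments are shown whole, 5′ to 3′, with the codons of that motif in capitals, searched as TTT or TTC, then GGN, NNN and GGN on the strand of the gene. It was found in 56 of all 80 J segments (70%), 42 of 51 alpha and 11 of 13 beta J segments annotated as genes. Trbj2-6, an annotated pseudogene, has no match.
Trbj2-1 (chr6:41542754-41542803, + strand): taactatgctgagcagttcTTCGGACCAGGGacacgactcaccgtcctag
Trbj1-4 (chr6:41534811-41534861, + strand): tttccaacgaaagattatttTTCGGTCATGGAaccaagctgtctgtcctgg
Trbj2-5 (chr6:41543453-41543501, + strand): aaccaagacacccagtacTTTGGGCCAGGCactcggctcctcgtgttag
Trbj2-6 (chr6:41543598-41543645, + strand): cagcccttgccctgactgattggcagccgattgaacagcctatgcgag
Traj5 (chr14:54213777-54213838, + strand): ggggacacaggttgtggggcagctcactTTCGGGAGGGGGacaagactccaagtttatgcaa
Traj6 (chr14:54212688-54212749, + strand): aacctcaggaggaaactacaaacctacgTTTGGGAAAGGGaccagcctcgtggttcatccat
Traj9 (chr14:54209393-54209450, + strand): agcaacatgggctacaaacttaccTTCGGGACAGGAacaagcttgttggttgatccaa

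All 14 beta J segments had a count in some library and 5 (35.7%) in every library. Over all genes the shares were 36% and 23.7%. Trbj2-1 had 7, 26 and 3 counts, Trbj1-4 had 4, 19 and 1, and Trbj2-5 had 9, 6 and 2. The pseudogene Trbj2-6 was among the 5 highest, with 9, 11 and 2 counts, 14.1% ± 2.65 of beta J counts (SD, n = 3). Its neighbour Trbj2-7 had 6, 0 and 5 counts. Whether the counts of Trbj2-6 come from joined receptor transcripts was not tested. The Trbj2 cluster held 68.3%, 63.2% and 77.8% of beta J counts. The beta D segments, which are outside the members, had 1, 19 and 3 counts on Trbd1 and 11, 31 and 2 on Trbd2.

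Alpha J counts were few, at 40, 38 and 23 over 60 segments. Of these, 32 (53.3%) had a count in any library, where 36% of all genes did. All 38 counts of replicate 2 lay on Traj5 (16), Traj6 (11) and Traj9 (11), 3 segments near the constant gene. Traj5 and Traj9 were at 0 in replicates 1 and 3, and Traj6 had 3 counts in replicate 1 and 2 in replicate 3. Traj22 had 6, 0 and 0 counts and Traj15 had 3, 0 and 2. The 30 alpha J segments nearest the constant gene held 75.0%, 100% and 73.9% of alpha J counts, so the lean toward the proximal side was present without replicate 2. Over both loci 6 J segments had a count in every library, and 15 had a count in both replicates 1 and 3. The 6 were 7.5% of all J segments, where 23.7% of all genes had a count in every library.

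**Figure D5:**
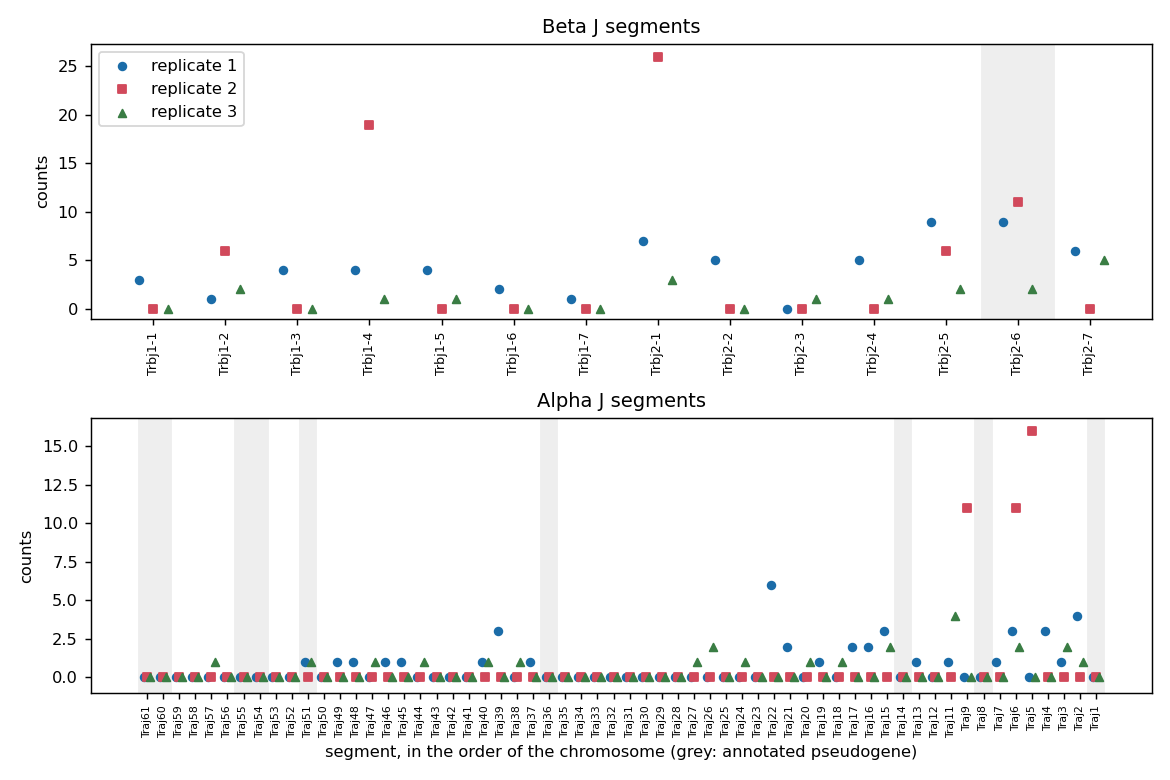
Counts (y axis) of the 14 beta J segments (upper panel) and 60 alpha J segments (lower panel) in their order on the chromosome (x axis), with 1 point for each library; grey marks annotated pseudogenes. Replicate 2 reaches 26 counts on Trbj2-1 and 19 on Trbj1-4, and in the alpha locus it has counts on Traj9, Traj6 and Traj5 only.

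The segments of invariant receptors were at or near 0. Natural killer T cells of the mouse join Trav11 to Traj18; Trav11 had 0 counts in every library and Traj18 had 1, in replicate 3. Trav11 has an identical copy, Trav11d, also at 0. Mucosal-associated invariant T cells join Trav1 to Traj33; Trav1 had 1, 0 and 1 counts and Traj33 had 0. Zbtb16, the regulator of both lineages, was at 0 in every library. Of the other genes on the NKT cell list, not all of which mark these cells, Klrb1c had 1 count and Klrb1b was at 0. Cd1d1 had 3, 2 and 0 counts, and Il2rb, which activated helper cells also express, had 314, 171 and 112. Of the 5 NK cell markers 3 were at 0, Klrb1c had 1 count and Eomes had 5, 10 and 2. Over all genes 32372 of 50600 were at 0 in every library, so the number of zeros alone does not set this list apart.

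Immunoglobulin segments, the most alike gene class in structure, were at or near 0 apart from constant genes. Of the 256 V and J segments of the receptor 136 had a count, against 1 of the 413 V, D and J segments of the immunoglobulin loci, with a single count in replicate 2. Over all genes 36% had a count in any library. The 2 sets are not alike, since the immunoglobulin set holds 22 D segments and 158 pseudogenes. The receptor set leaves out D segments and holds 44 pseudogenes. Immunoglobulin constant genes nonetheless held 459, 177 and 168 counts, of which Ighm, the IgM heavy chain, held 453, 177 and 166. Of the 9 genes on the B cell list 5 were at 0 in every library, as were 32372 of all 50600 genes. Among them were Ms4a1, Pax5 and the light chain genes Igkc and Iglc2. Besides Ighm, Cd79a had 27, 0 and 17 counts, Ighd, the IgD heavy chain, had 5, 0 and 1, and Cd79b had 1.

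Other genes lying among the beta segments were at or near 0. Of 11 trypsinogen-type and related genes found inside or beside the V region 10 were at 0, against 32372 of all 50600 genes. Prss2, a trypsinogen between the V and the D segments, had 1, 0 and 2 counts. Ephb6, the first gene beyond Trbv31, had 32, 13 and 7 counts, and Dad1, the first beyond Trac, had 135, 84 and 54. Per kilobase that was 8.48, 3.45 and 1.86 for Ephb6 and 34.5, 21.5 and 13.8 for Dad1, below Trac in every library.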

How the data were processed

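Counts were deposited as whole numbers per gene. Per the file headers, the authors made them with featureCounts (v1.4.6-p4, read pairs with both ends mapped, strand setting 1) from the exons in GENCODE vM13. The labels give the assembly as mm10. No option for pairs on several genes or places stands in the command. Gene length was deposited beside the count. Sources used here do not give the aligner version, kit or read length. The labels name total RNA while the linked library protocol is named for poly(A) RNA. Names and biotypes (50376 of 50600 IDs), and the transcripts used for sequences and identity (longest per gene, edit distance over the shorter), came from GENCODE vM21 on GRCm38.

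CPM, counts per 1000000, uses the sum over genes. No samples were compared as groups; the only test is the exact sign-flip test. Effective number is the exponential of Shannon entropy, and rarefaction is analytic; both were tested on simulated data. The members and lists were chosen with earlier results of these data known. Segments named were all constant genes, the 8 highest V and 5 highest J segments each of the alpha and beta loci, delta or gamma segments with at least 10 counts (none), inverted and invariant-receptor segments, the 5 V segments of largest spread among those with at least 30 counts, beta V genes at 0 throughout, and the fixed lists. Other genes named (the remaining beta V segments, Trdv1, Trav6-6, Trav13d-3, Trav13-3, Trav7d-4, Trav11d, the D segments, Tbx21, Ifng, antisense and mitochondrial genes) were picked with their values in view. Alternatives were each replicate left out, other scalings, thresholds and indices, segments without opposite-strand exons, and counts per kilobase. Software was edgeR 4.0.16 (TMM) and DESeq2 1.42.0 (size factors) in R 4.3.3, and edlib 1.3.9.post1, SciPy 1.17.1, pandas 2.3.3, numpy 2.4.6 and matplotlib 3.10.9 in Python 3.11.15. The result of 1 gene of the fixed lists is not reported here.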

Additional observations from a re-analysis of the deposited data

How the results depend on the processing

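Of 56 alternatives over 9 results 40 stayed within the spread between libraries, within 1.5 times the count or on the same side of 0. Summed TPM over the segments was 2379 in place of 461 CPM. Per kilobase, the constant share was 31.3% in place of 64.9%, the alpha share of alpha and beta counts 39.1% in place of 46.2%, and the gamma and delta share 0.227% in place of 0.366%; without segments that meet opposite-strand exons the last was 0.174%. The mean log2 ratio of Trac was 0.50 against Trbc2 alone and 0.18 in plain counts, both of the opposite sign to the reported -0.21. V segments seen in every library numbered 24, against 13 at 3 counts or more in every library, 90 in any library and 53.9 expected on average at the smallest V total. J segments numbered 6, against 1 at 3 counts or more and 46 in any library. Leaving out 1 replicate gave 25 to 66 V and 6 to 15 J segments, the highest values without replicate 2. The effective number of alpha V segments was 9.84 by family in place of 28.1, and that of beta V segments was 10.7 by the inverse Simpson index in place of 13.1. Beyond the settings' own construction, the causes were not tested. At this depth a segment at 0 in a library cannot be told from a segment present at up to the floor of 3 counts. Segments with under 3 counts lie near that floor. No paired analysis was possible because the 3 libraries form 1 group.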
